A study of Danio rerio with 6 samples.

Results

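The transcription factor genes *tp63*, *tfap2a*, *tfap2c*, *foxi1*, *gata2a*, *gata3*, *dlx3b* and *grhl3*, regulators of the ectoderm that does not become neural tissue, were examined in zebrafish blastulas with raised Nodal signalling. All array features, the probe spots of the array, whose symbol in the platform annotation is one of these 8 genes were taken. This gave 13 of the 45220 features, covering 7 of the 8 genes. *tfap2a* has 4 features, *tp63* has 3, *tfap2c* has 2, and *foxi1*, *gata2a*, *gata3* and *dlx3b* have 1 each. No feature carries the symbol *grhl3*, a grainyhead-like gene of epidermal barrier formation, which was not analysed here.

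Samples were 3 *ndr1*-injected and 3 control-injected pools of whole wild-type embryos of the AB strain, taken at sphere, a blastula stage. The *ndr1*-injected embryos were given 50 pg of mRNA for the Nodal ligand gene *ndr1* in 1 nl of water, the control-injected embryos 1 nl of water without mRNA. This follows the sample labels. The general injection methods of the study name a smaller amount of *ndr1* mRNA and *gfp* mRNA as control, and which of the accounts holds for these arrays was not settled here. Total RNA came from about 200 embryos per sample and was hybridised to one-colour Agilent arrays, 1 array per sample. Whether the pools were drawn from different clutches is not in the labels. The p-values hence reflect no more than the scatter among these pools, and that scatter may be technical.

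Non-neural ectoderm forms on the ventral and animal side of the embryo, where BMP signalling is high, and gives rise to epidermis, and along its border to placodes and neural crest. *tp63* is needed for epidermal proliferation and is a direct target of BMP signalling in zebrafish. The AP-2 genes *tfap2a* and *tfap2c*, the forkhead gene *foxi1*, the zinc finger genes *gata2a* and *gata3* and the homeobox gene *dlx3b* act in non-neural ectoderm and help to set its competence to form neural crest and placodes. Nodal signalling acts from the margin, where it induces mesoderm and endoderm. The comparison therefore asks whether genes of the opposite, ectodermal side of the embryo differ once Nodal is raised, in whole embryos at a stage before gastrulation.

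Of the 13 features 2, both of *tp63*, were higher in all *ndr1*-injected arrays than in any control-injected array. Such a separation was found in 7.53% of all features. These 2 *tp63* features differed by 4.29-fold and 2.40-fold in the deposited signals, while the groups overlapped in the brightest *tp63* feature. The other 10 features, of 6 genes, differed by -0.40 to 0.88 on the log2 scale with overlapping groups, and 7 of them were lower and 3 higher in *ndr1*-injected embryos. None of the 13 features passed the test across the array with limma (lowest adjusted p = 0.682), nor did any of the 45220 features (0% called at an adjusted p below 0.05, lowest adjusted p = 0.106). At an unadjusted p of at most 0.02, the cutoff named by the study, 2 member features were higher, both of *tp63*, and 0 were lower, where 1.17% of all features were higher and 1.18% lower. The same 2 features were those with an unadjusted p below 0.05, which 6.74% of all features had. The median difference over the 13 features was -0.0057, against -0.010 over all features. In whole embryos, fewer cells of a type and less RNA per cell cannot be told apart.

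**Figure D1:**
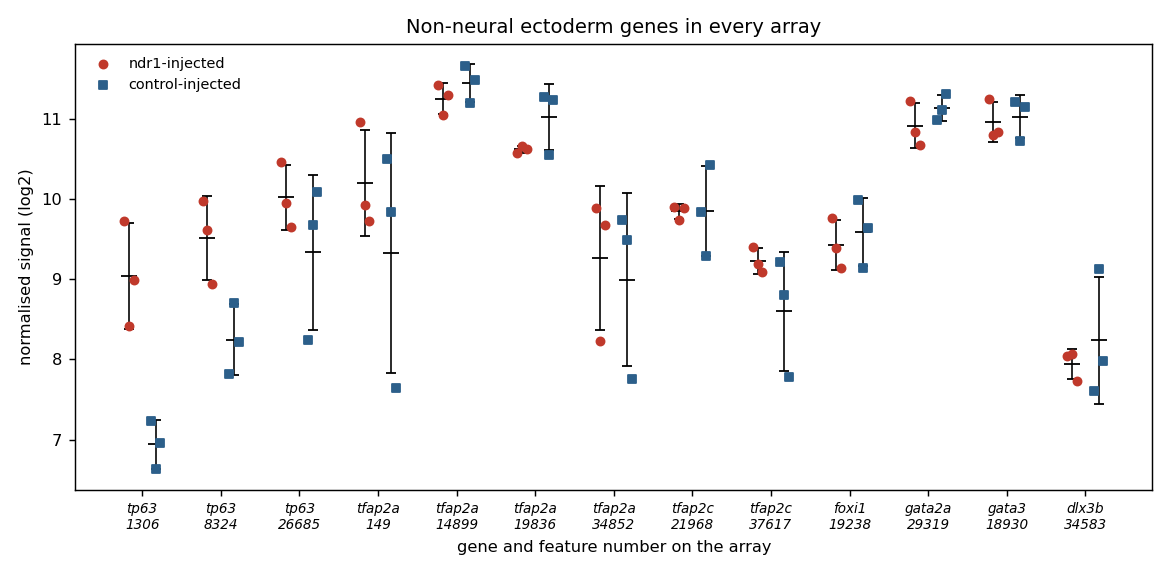
Normalised log2 signal (vertical axis) of the 13 member features, by gene and feature number (horizontal axis), in 3 *ndr1*-injected arrays (circles, left of each pair) and 3 control-injected arrays (squares, right), with mean and SD. The groups do not overlap for *tp63* features 1306 and 8324, and overlap for the other 11.

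The signal for *ndr1* separated the groups of arrays. The *ndr1* feature (20295) read 13.8, 14.8 and 13.9 in *ndr1*-injected embryos, against 10.6, 10.1 and 10.9 in control-injected embryos, on a log2 scale on which the median feature of an array read 8.70 to 8.71. Since *ndr1* was injected, this checks the labels and is no finding. Injected and embryonic *ndr1* mRNA were not told apart here. Arrays correlated across features between 0.920 and 0.926 within the *ndr1*-injected group and between 0.836 and 0.886 within the control-injected group. Between the groups the correlations ran from 0.820 to 0.928, so the highest of all lay between arrays of different groups. Signals also varied with where a feature lies on the array (deviations of features in neighbouring grid rows correlated with r = 0.527). The differences of the members and of the other named genes in the lists are therefore also given after subtraction of this trend. It was taken in square windows 9 features wide. After subtraction 0 members were called, against 0.0619% of all features.

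The *tp63* feature annotated to the RefSeq transcript NM_152986 (feature 1306) had the largest difference of the members. It read 9.73, 8.41 and 8.99 in *ndr1*-injected embryos, against 7.23, 6.63 and 6.96 in control-injected embryos (log2 signal). The lowest *ndr1*-injected value lay more than 1 log2 unit above the highest control-injected value. All control-injected values and 1 *ndr1*-injected value lay below the array median, and whether they were above background is not known, so the fold describes the deposited signals only. The difference was 2.10 ± 0.39 (SE, n = 3 arrays per group), with a 95% interval from 1.19 to 3.01, and limma gave an unadjusted p of 0.000754 and an adjusted p of 0.682. Over the alternatives the adjusted p ran from 0.199 to 0.991. Of all 45220 features 54, or 0.119%, had a difference at least as large. After subtraction of array position the feature read 8.79 ± 0.53 in *ndr1*-injected and 7.19 ± 0.15 in control-injected embryos (SD, n = 3 each), and the difference was 1.60 ± 0.28 (SE). The subtracted trend itself differed by 0.51 between the groups at this spot.

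A second *tp63* feature, annotated to NM_152248 (feature 8324), read 9.97, 9.62 and 8.94 in *ndr1*-injected embryos, against 7.82, 8.71 and 8.22 in control-injected embryos. The control-injected values of 7.82 and 8.22 lay below the array median. Whether they were above background is not known, so the fold of this feature also describes the deposited signals only. The groups did not overlap, but the lowest *ndr1*-injected and the highest control-injected value were close. The difference was 1.26 ± 0.38 (SE), with a 95% interval from 0.38 to 2.14 and limma gave an unadjusted p of 0.0109 and an adjusted p of 0.726 (0.432 to 0.991 over the alternatives). It changed little after subtraction of position, at 1.17 ± 0.32.

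The third *tp63* feature, annotated to NM_152987 (feature 26685), was the brightest of the 3 and differed least. It read 10.5, 9.95 and 9.65 in *ndr1*-injected embryos, against 8.24, 9.68 and 10.1 in control-injected embryos. The groups overlapped, because only control-injected replicate 1 read well below the *ndr1*-injected arrays. The difference was 0.69 ± 0.50 (SE), with a 95% interval from -0.48 to 1.85, and 0.14 without control-injected replicate 1. That array carried a local deviation of -0.87 at this spot, and once position was subtracted it read 9.11 and the difference was 0.50 ± 0.25.

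All 3 *tp63* features were thus higher on average in *ndr1*-injected embryos, and in each of them *ndr1*-injected replicate 1 had the highest value of the 6 arrays. This array was the highest in 7 of the 13 member features, against 15.8% of all features, and its part in the results was not tested beyond leaving it out. Without it the 3 *tp63* features differed by 1.76, 1.03 and 0.47. The 3 features share their gene and are not independent replicates. Whether they differ in response could not be decided at this number of arrays. An exact two-sided permutation test of the within-array difference between 2 features gave p = 0.2, 0.2 and 0.3 for the 3 pairs, and all 10 pairs of features of one gene had a Benjamini-Hochberg adjusted p of at least 0.556. For a single feature the exact permutation test gave p = 0.1 for features 1306 and 8324, the smallest value that 3 arrays against 3 can reach. At an unadjusted p of at most 0.02 the count of 2 features became 1 without *ndr1*-injected replicate 1 or 2. It also became 1 without control-injected replicate 1 or 3, and each time feature 8324 was the one that no longer passed. The share of all features at this cutoff was not taken without these arrays.

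**Figure D2:**
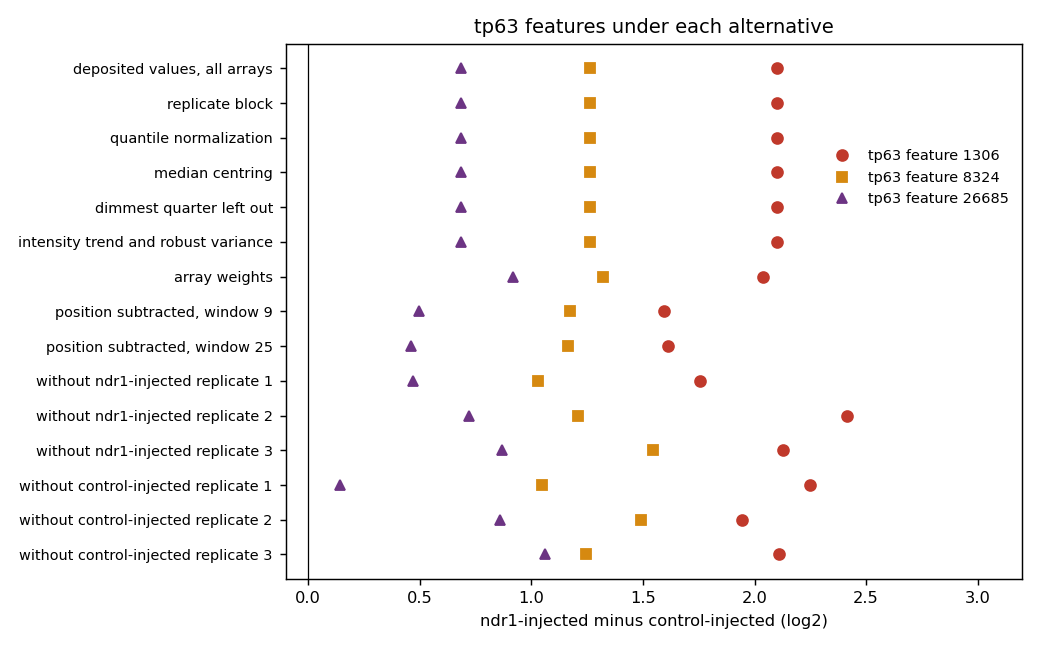
Difference between *ndr1*-injected and control-injected embryos on the log2 scale (horizontal axis) of the 3 *tp63* features under the deposited values and each of 14 alternatives (vertical axis). Feature 1306 stays between 1.60 and 2.42, feature 8324 between 1.03 and 1.55, and feature 26685 between 0.14 and 1.06.

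Taking 1 feature per gene by brightness selected feature 26685, so that *tp63* differed by 0.69 with an adjusted p of 0.760 in the limma fit over 14434 genes. With the mean of its 3 features *tp63* differed by 1.35 ± 0.32 (SE), and limma gave an unadjusted p of 0.00363 and an adjusted p of 0.569. The estimate for *tp63* thus ran from 0.69 to 2.10 with the feature taken, and was positive in all 3.

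One regulatory sequence is shown, the only potential Foxh1 site that the study's supplementary tables list for a Smad2-bound region assigned to a member. Such sites were computed matches to a motif matrix and occurred in many of the study's Smad2-bound regions. The study obtained no data on Foxh1 binding. Foxh1 is a forkhead cofactor of Smad2, the transducer of Nodal signals, and the region is assigned to *tp63*. Capitals mark the inner stretch AATACA, and no letter-by-letter match to a consensus is shown. The strand is as listed, and nothing about the use of the site in these embryos was measured here.
*tp63* site: tacAATACAct

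The AP-2 gene *tfap2a* has 4 features, all annotated to NM_176859, and their differences had both signs, with none past the test. The brightest (feature 14899) read 11.4, 11.0 and 11.3 in *ndr1*-injected embryos, against 11.7, 11.2 and 11.5 in control-injected embryos. The groups overlapped, and the difference of -0.19 ± 0.28 (SE) became 0.41 ± 0.23 after subtraction of position. The groups were then apart, as for 6.78% of all features in that direction. The subtracted trend itself differed by -0.61 between the groups at this spot. Feature 19836 read 10.6, 10.7 and 10.6 in *ndr1*-injected embryos, against 11.3, 10.6 and 11.2 in control-injected embryos. Here control-injected replicate 2 lay just below the *ndr1*-injected values and the other two above them, and the difference was -0.40 ± 0.30 (SE), or -0.32 after subtraction of position.

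In the remaining *tfap2a* features 1 control-injected array read low. Feature 149 read 11.0, 9.92 and 9.73 in *ndr1*-injected embryos, against 10.5, 9.84 and 7.64 in control-injected embryos, and feature 34852 read 9.89, 8.23 and 9.67 in *ndr1*-injected embryos, against 9.74, 9.49 and 7.76 in control-injected embryos. In both, control-injected replicate 3 had the lowest value. The differences were 0.88 ± 0.72 and 0.27 ± 0.63 (SE), and without that array they were 0.037 and -0.35. Local deviation of that array at these spots was -0.23 and -0.18, so its low values remained after subtraction (7.87 and 7.93), where the differences were 0.45 and 0.41. The mean of the 4 features differed by 0.14 ± 0.37 (SE), and limma over genes gave it an adjusted p of 0.921.

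*tfap2c*, which acts redundantly with *tfap2a* in zebrafish ectoderm, has 2 features, both annotated to NM_001008576. Feature 21968 read 9.90, 9.74 and 9.89 in *ndr1*-injected embryos, against 9.83, 9.29 and 10.4 in control-injected embryos, a difference of -0.0057 ± 0.35 (SE) with a 95% interval from -0.81 to 0.80. The *ndr1*-injected values lay inside the range of the control-injected values, and after subtraction of position the difference was 0.0057. Feature 37617 read 9.40, 9.19 and 9.09 in *ndr1*-injected embryos, against 9.22, 8.80 and 7.78 in control-injected embryos, a difference of 0.63 ± 0.40 that was 0.22 without control-injected replicate 3 and 0.56 after subtraction of position. As with *tfap2a* features 149 and 34852, the low control-injected value came from that array.

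The forkhead gene *foxi1*, needed for otic placode formation, read 9.76, 9.39 and 9.14 in *ndr1*-injected embryos, against 9.99, 9.14 and 9.64 in control-injected embryos (feature 19238). The groups overlapped throughout. The difference was -0.16 ± 0.33 (SE), with a 95% interval from -0.94 to 0.61, and 0.055 after subtraction of position.

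The GATA genes gave overlapping values in both groups. *gata2a*, a ventral ectoderm and haematopoietic factor, read 11.2, 10.8 and 10.7 in *ndr1*-injected embryos, against 11.0, 11.1 and 11.3 in control-injected embryos (feature 29319). *gata3*, expressed in ventral ectoderm and later in placodes, read 11.2, 10.8 and 10.8 in *ndr1*-injected embryos, against 11.2, 10.7 and 11.1 in control-injected embryos (feature 18930). Their differences were -0.22 ± 0.29 and -0.070 ± 0.29 (SE), with 95% intervals from -0.88 to 0.44 and from -0.75 to 0.61. A change larger than about 1 log2 unit in either direction lay outside these intervals of the deposited values. With position subtracted, *gata2a* and *gata3* differed by -0.16 and -0.26. The 95% intervals then ran from -1.07 to 0.75 and from -0.92 to 0.40, so a decrease of 1 log2 unit lay inside that of *gata2a*.

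*dlx3b*, a homeobox gene of the preplacodal ectoderm, was below the array median in all but 1 array. It read 8.04, 8.07 and 7.73 in *ndr1*-injected embryos, against 7.61, 9.13 and 7.98 in control-injected embryos (feature 34583). The high value of control-injected replicate 2 coincided with a local deviation of 0.81 at this spot. After subtraction of position the values were 8.03, 7.94 and 7.75 in *ndr1*-injected embryos, against 8.16, 8.31 and 8.11 in control-injected embryos. The groups then no longer overlapped, as for 6.1% of all features in that direction, and the difference was -0.29 ± 0.19 (SE), against -0.29 ± 0.42 before subtraction.

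**Figure D3:**
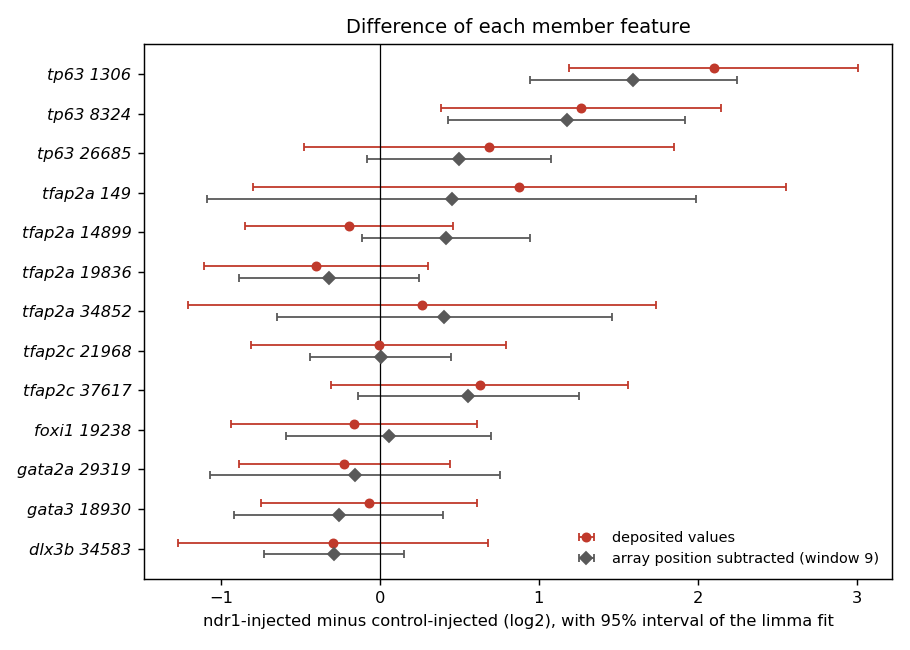
Difference of each member feature, *ndr1*-injected minus control-injected, on the log2 scale (horizontal axis) with the 95% interval of the limma fit, for the deposited values (circles) and after subtraction of array position (diamonds). The intervals of *tp63* features 1306 and 8324 lie above 0 in both, and those of the other 11 features include 0.

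Seen over the 13 features, the 2 features without overlap between the groups were set against 7.53% of all features with every *ndr1*-injected array above every control-injected array. In the opposite direction there were 0 member features, against 5.55% of all features. After subtraction of position the counts were 3 and 1, against 6.78% and 6.1% of all features, the added features being *tfap2a* 14899 and *dlx3b*, and the median difference was 0.41, against -0.0015 over all features. The 10 features of the other genes had a median of 0.030 in that setting (-0.32 to 0.56). Replicates spread more among control-injected arrays, with a median SD of 0.280 in *ndr1*-injected and 0.445 in control-injected embryos over the member features, and 10 of the 13 had the larger SD in control-injected embryos (59.3% of all features).

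The members were next set beside related genes, each by its brightest feature in the fit over 14434 genes, of which 3 genes or 0.0208% were called with limma, and 1.72% and 1.02% were higher and lower at an unadjusted p of at most 0.02. After subtraction of position 0.111% of genes were called, and 1.74% and 0.533% were higher and lower at that cutoff. Of the 7 member genes 0 stood out in this way and their median was -0.16, against 0.0060 over all genes. Their median was 0.0057 after subtraction of position. Genes of the mesendoderm and margin differed in the same arrays, with a median of 2.62 over 8 markers, 8 higher at this cutoff and 2, *gsc* and *foxa3*, called. After subtraction of position their median was 2.94, with 8 higher at this cutoff and 4 called. *gsc* and *foxa3* then differed by 3.21 and 3.51.

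Among paralogues of the members 24 of 28 were on the array, with a median difference of 0.073 (0.083 after subtraction of position, -0.077 without control-injected replicate 2) and 0 called. At the unadjusted cutoff 2 were higher, *gata5* and *gata6*, which unlike *gata2a* and *gata3* are endoderm factors, and 0 were lower. *gata5* read 10.9 ± 0.53 in *ndr1*-injected and 8.84 ± 0.77 in control-injected embryos, and *gata6* 9.97 ± 1.09 in *ndr1*-injected and 7.67 ± 0.51 in control-injected embryos (SD, n = 3 each). *gata1b*, a factor of red blood cells, followed in order of p, at 7.55 ± 0.32 in *ndr1*-injected and 8.36 ± 0.32 in control-injected embryos. *gata5*, *gata6* and *gata1b* differed by 2.19, 2.27 and -0.53 after subtraction of position. The 11 paralogues of AP-2, Foxi, p63 and grainyhead-like genes included none that passed this cutoff. *tp73*, a close relative of *tp63* that was named after its values had been seen, read 7.18 ± 0.79 in *ndr1*-injected and 8.22 ± 0.54 in control-injected embryos. Its 3 features differed by -1.04 to -0.17, opposite in sign to the 3 *tp63* features. The brightest of them, whose values are given, had overlapping groups and an adjusted p of 0.712 in the limma fit over genes. Its *ndr1*-injected and most of its control-injected values lay below the array median, and whether they were above background is not known. Its brightest feature differed by -0.86 after subtraction of position.

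BMP inputs and early ventral genes had a median of 0.12 over 21 of 24 genes, with 3 higher and 1 lower at the unadjusted cutoff. The list holds targets of BMP signals as well as inputs. The median was 0.16 and 0.24 after subtraction of position in windows of 9 and 25, and 0.37 without *ndr1*-injected replicate 2. The Id gene *id3*, a target of BMP signals, was the 1 called gene of this list (13.3 ± 0.21 in *ndr1*-injected and 10.7 ± 0.10 in control-injected embryos, SD, n = 3 each). The ligand gene *bmp4* read 10.0 ± 0.49 in *ndr1*-injected and 8.60 ± 0.36 in control-injected embryos. The pseudoreceptor gene *bambia* read 12.7 ± 0.12 in *ndr1*-injected and 11.7 ± 0.49 in control-injected embryos. The lower gene was *id1*, a further Id gene, at a difference of -0.80 and named after its values had been seen. After subtraction of position *id3* and *bmp4* differed by 2.46 and 1.33 and were the 2 genes of the list that passed the unadjusted cutoff, while *id3* was no longer called (adjusted p = 0.0975 with limma). *bambia* and *id1* then differed by 0.55 and -0.44 and no longer passed.

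Preplacodal and neural plate border genes, many of them downstream of the members, had a median of -0.17 over 22 of 27 genes, with 3 higher, 1 lower and 0 called. The median was -0.047 and 0.0011 after subtraction of position in windows of 9 and 25, and -0.061 without control-injected replicate 3. The smallest p belonged to *zic2a*, a zinc finger gene of the neural plate and its border, which read 11.5 ± 0.31 in *ndr1*-injected and 9.80 ± 0.32 in control-injected embryos (SD, n = 3 each). The neural crest gene *foxd3* followed at 11.2 ± 0.52 in *ndr1*-injected and 10.1 ± 0.28 in control-injected embryos, and then *vgll4l* at 14.1 ± 0.16 in *ndr1*-injected and 13.4 ± 0.056 in control-injected embryos. The lower gene was *snai2*, a regulator of neural crest, at -0.83 by its brightest feature and named after its values had been seen. The 3 *snai2* features ran from -1.01 to 0.61, so their signs were mixed. *foxd3* is also expressed at the margin, and its other feature differed by 0.55. After subtraction of position *zic2a*, *foxd3* and *snai2* differed by 1.28, 0.78 and -0.88 and still passed the unadjusted cutoff, and *vgll4l* differed by 0.18 and no longer passed.

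Genes of the epidermis and of the enveloping layer, the outer epithelium of the blastula, had a median of 0.10 over 23 of 28 genes, with 1 higher, 0 lower and 0 called. The median was 0.088 after subtraction of position, -0.063 without *ndr1*-injected replicate 1 and -0.021 without control-injected replicate 2. The keratin gene *krt18a.1* read 13.6 ± 0.57 in *ndr1*-injected and 12.1 ± 0.28 in control-injected embryos, and the fatty acid elongase gene *elovl6* 11.1 ± 0.39 in *ndr1*-injected and 9.90 ± 0.81 in control-injected embryos (SD, n = 3 each). The envoplakin gene *evpla* read 9.66 ± 0.23 in *ndr1*-injected and 8.76 ± 0.73 in control-injected embryos. With position subtracted, *krt18a.1*, the 1 gene past the unadjusted cutoff before, differed by 0.92 and no longer passed. At that cutoff 2 other genes were then higher, *elovl6* and *capn9* (0.72), and 1 was lower, *anxa1c* (-1.21), with 0 called. *capn9* and *anxa1c* were named after their values had been seen. *evpla* then differed by 0.41, and *elovl6* by 1.48 with the smallest p of the list. The 8 enveloping layer markers had a summed level of 14.7 to 15.8 in *ndr1*-injected and 14.4 to 15.1 in control-injected embryos on the log2 scale, and their part in the *tp63* values was not tested.

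**Figure D4:**
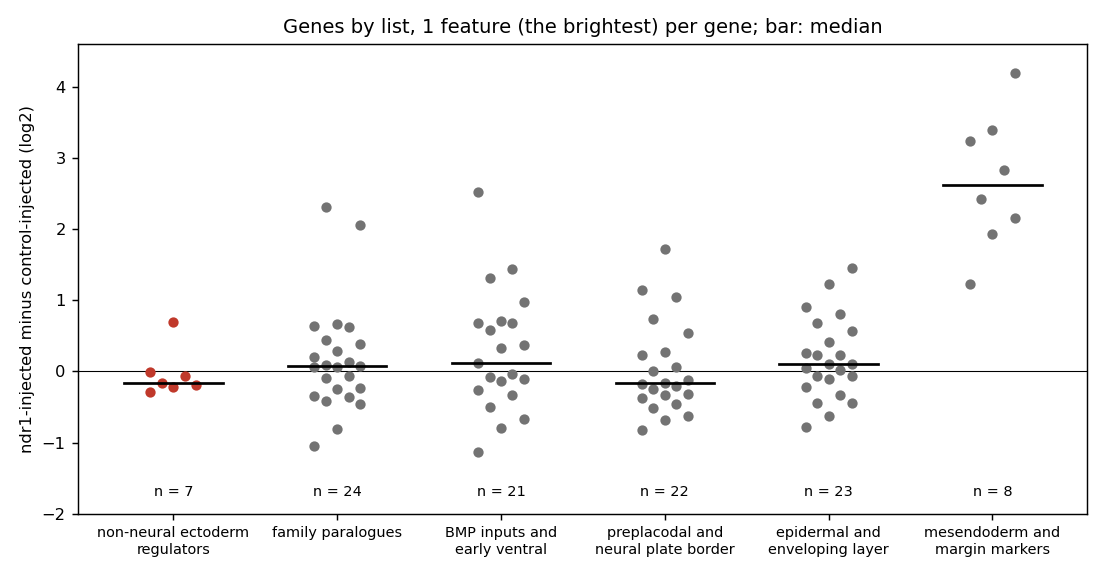
Difference between *ndr1*-injected and control-injected embryos on the log2 scale (vertical axis) of the genes of each list (horizontal axis), 1 point per gene by its brightest feature, with the median as a bar. The 7 member genes lie between -0.29 and 0.69, and the 8 mesendoderm and margin markers between 1.23 and 4.20.

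Across the 6 arrays, the named features that followed *tp63* feature 1306 most closely were those of the ribosomal protein gene *rps19* (Pearson's r = 0.994), *derl3* (0.991) and *calm3b* (0.991), out of 21060 compared, of which 114 had r above 0.95. These features differed by 0.49, 0.84 and 0.26 between the groups. With position subtracted the closest were *rnf24*, *wu:fi42e03* and the keratin gene *krt99*. Of the other member features, *tp63* feature 8324 ranked highest in the deposited values (r = 0.790) and *tfap2a* feature 19836 lowest (-0.523). Among all 21060 features compared, feature 8324 had rank 1601. The brightest *tp63* feature (26685, r = 0.449) ranked below *tfap2c* feature 37617 (0.610) and *tfap2a* feature 149 (0.515). After subtraction *tp63* feature 8324 was again the highest (0.931) and *dlx3b* the lowest (-0.702). *tfap2a* feature 14899 went from -0.168 to 0.884. The 6 arrays share normalisation and the trend with position, and these values are descriptions without a test.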

How the data were processed

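The authors labelled 15 µg of total RNA per sample with Alexa Fluor 555, hybridised it to Agilent zebrafish arrays (V2), scanned with GenePix and normalised by qspline. The deposited values are 1 log2 signal per feature and array (log2 read from their range, 4.92 to 16.3). For background correction and detection calls, the sources used here give nothing.

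Groups and replicate numbers came from sample titles. Features were named through the platform annotation: 21061 carried 1 symbol, 0 several, and 24159 are unnamed here. List genes were matched by symbols updated with GRCz12tu RefSeq names (298 changed, 14434 genes). Differences were fitted over all 45220 features with lmFit and eBayes of limma 3.58.1 (R 4.3.3), without covariates and with Benjamini-Hochberg adjustment. The fit was tested on simulated data with independent noise, which held neither the trend with position nor the larger spread among control-injected arrays. At gene level the feature with the highest mean was used. Position was subtracted as each array's median departure from the per-feature median over arrays within a square window, on a grid 85 columns wide. Named were all member features, *ndr1*, the 3 genes of smallest p in each related list and the 3 features most like *tp63* feature 1306. Members and lists were chosen with earlier results of these data known. The number of arrays limits the precision.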

Additional observations from a re-analysis of the deposited data

How the results depend on the processing

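Alternatives were array weights, a replicate block, a variance fit that is robust and follows intensity, removal of the dimmest features, centring on medians, quantile normalisation, subtraction of position in windows of 9 and 25, and each array left out in turn. Under all of them, and with 1 feature per gene, 0 member features were called. The share called was 0% of all features in the deposited values, 0.0619% with windows of 9, and 0.0208% of genes with 1 feature per gene. For the other alternatives this share was not taken, so their count of 0 is no result about the members. The count at an unadjusted p of at most 0.02 was 1 with the robust, intensity-following variance and 1 to 2 without each array in turn. At this cutoff no share of all features was taken for the alternatives. The median over member features was 0.41 and 0.29 after subtraction with windows of 9 and 25, and over member genes 0.0057 and 0.035 with these windows, and -0.070 with the mean of all features of a gene. The differences of *tfap2a* feature 14899 (0.41 and 0.29), *tfap2c* feature 21968 (0.0057 and 0.035) and *foxi1* (0.055 and 0.099) changed sign with windows of 9 and 25. Without each array in turn *tfap2a* feature 34852 ran from -0.35 to 0.78, *tfap2c* feature 21968 from -0.28 to 0.28, *foxi1* from -0.39 to 0.039, *gata3* from -0.22 to 0.021 and *dlx3b* from -0.61 to 0.15, and the medians over features and genes from -0.044 to 0.15 and from -0.28 to -0.013. The cause of these changes was not tested beyond the arrays and positions named. Deviations of same-numbered arrays correlated at r = 0.179, -0.101 and 0.0401, within the range of differently numbered arrays of the groups (-0.256 to 0.222). These values do not settle whether the numbers mark pairs, and the numbers were not taken as pairs. With the replicate block the count stayed at 2 and the medians at -0.0057 and -0.16. The likeness after subtraction and the pairwise feature tests were added after the data had been seen.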
